A study of Mus musculus with 12 samples.

Results

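Genes that mark hepatocytes around the central vein or that answer to Wnt signalling were followed in mouse liver, 10 in all: Glul, Oat, Slc1a2, Rhbg, Lgr5, Rnf43, Znrf3, Axin2, Sp5 and Tbx3. They were taken by name from the deposited count table, which lists 24421 genes, and all 10 were found and passed the filter on low counts, as did 13880 genes in all. The tissue was liver without tumour from male mice killed at 4 months of age. Strain LiK fed the normal diet, LiK on the ACR diet, LiKM fed the normal diet and LiKM on the ACR diet gave 4 groups of 3 mice, each mouse being 1 library. The ACR diet held 0.06% ACR, an acyclic retinoid studied against liver cancer, and was given from 5 weeks of age. The labels do not spell out the strains. Other knowledge of the study has it that hepatocytes of LiKM mice should be without Mdm2, which marks p53 for degradation. The Cre driver, and how many lines each strain name covers, were not given in the sources used here. No livers of another strain were analysed here.

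In a liver lobule, endothelial cells of the central vein release Wnt ligands and R-spondin. These act on nearby hepatocytes through Frizzled and LRP receptors, beta-catenin is then no longer degraded, and with TCF and LEF factors it turns on target genes. Hepatocytes next to the vein take up ammonia and glutamate and make glutamine, while those around the portal tract make urea and glucose. R-spondins bind LGR receptors and remove the ligases RNF43 and ZNRF3, which otherwise take Frizzled off the cell surface. AXIN2, NKD1 and NOTUM restrain the pathway and are themselves induced by it.

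RefSeq promoter windows of 250 bases before the start site (build GRCm38.p6) were at hand for 6 of the 10 genes: Glul, Oat, Slc1a2, Rnf43, Axin2 and Sp5. Of these, 4 are shown because they set feedback and Wnt target genes (Sp5, Axin2) beside genes of amino acid metabolism (Slc1a2, Oat), the contrast on which the values below turn. Capitals mark words that TCF and LEF factors can bind (ATCAAAG, or the same word starting with AA, TA or TT in place of AT, on either strand) and, in Slc1a2, the word TTATGCAA that clock output factors such as DBP can bind. The windows are Sp5 chr2:70474673-70474922 (+), Slc1a2 chr2:102706188-102706355 (+, without its last bases, which an annotated exon covers), Axin2 chr11:108920099-108920348 (+) and Oat chr7:132576399-132576648 (-).
Sp5: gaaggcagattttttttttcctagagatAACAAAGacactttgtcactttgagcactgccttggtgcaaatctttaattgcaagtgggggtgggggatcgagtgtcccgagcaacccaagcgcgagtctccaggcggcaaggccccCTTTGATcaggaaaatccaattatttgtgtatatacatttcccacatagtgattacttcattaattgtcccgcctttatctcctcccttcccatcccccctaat
Slc1a2: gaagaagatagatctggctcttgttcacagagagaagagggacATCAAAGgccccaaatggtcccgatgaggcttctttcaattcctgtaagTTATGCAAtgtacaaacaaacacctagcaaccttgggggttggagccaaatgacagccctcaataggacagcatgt
Axin2: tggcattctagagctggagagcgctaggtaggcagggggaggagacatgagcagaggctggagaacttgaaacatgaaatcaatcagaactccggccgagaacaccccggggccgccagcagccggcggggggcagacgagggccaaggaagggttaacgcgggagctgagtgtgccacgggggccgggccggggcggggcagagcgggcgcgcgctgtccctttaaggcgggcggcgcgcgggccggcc
Oat: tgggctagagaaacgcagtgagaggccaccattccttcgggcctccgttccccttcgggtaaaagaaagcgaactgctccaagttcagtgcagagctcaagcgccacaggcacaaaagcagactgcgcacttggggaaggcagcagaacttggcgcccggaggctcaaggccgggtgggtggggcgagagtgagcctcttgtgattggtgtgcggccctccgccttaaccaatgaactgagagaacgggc
Sp5 held AACAAAG 222 bases and CTTTGAT, the same word set on the other strand, 104 bases before its start site. Slc1a2 held ATCAAAG at 207 and TTATGCAA at 158 bases, and this start site lies inside the gene, downstream of its first annotated base. No window of Glul, Oat, Rnf43 or Axin2 held any of the words, and none of the 6 genes held the E-box CACGTG. Over 32851 RefSeq windows of the same length, 14.8% held a TCF/LEF word, 3.07% a TTATG word of that kind (any base at position 6) and 6.02% an E-box, so a match is a description of the letters and not a site in use.

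Library totals ran from 10124813 to 18647156 counts, and levels are given as CPM, the count of a gene relative to the library's total count, scaled with TMM factors, which set libraries to a common level of the typical gene. The livers expressed hepatocyte markers at a summed 94200 to 168000 CPM. Biliary and progenitor markers (Krt19, Epcam, Sox9 and others) summed to 51.9 to 205 CPM in LiK and 345 to 1050 CPM in LiKM libraries. Mdm2, the gene meant to be lost, stood at 23.4 to 25.8 CPM in LiK and 29 to 35 CPM in LiKM mice on the normal diet, and at 21.6 to 23.5 and 31.8 to 67.2 CPM on ACR. It was thus not lower in LiKM (log2 fold change 0.37, edgeR adjusted p = 0.222, and 1.12, adjusted p = 0.0101, on ACR), and a count over the whole gene does not check the loss of an exon in 1 cell type. Clock genes stood apart within their groups in 3 LiKM libraries, LiKM normal diet mouse 3 and LiKM ACR mice 2 and 3, though not in one direction. Npas2 was at 10.4 and 18.2 CPM in LiKM ACR mice 2 and 3 and at most 1.51 CPM in the other libraries, and Nr1d1 was at 215 CPM in LiKM normal diet mouse 3 against 8.04 and 20.7 CPM in its group. The hour of collection was not given in the sources used here.

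Compared per kilobase of exon, which allows levels of different genes to be set side by side and over the 12 libraries, Glul averaged 234 CPM per kb and Oat 164 CPM per kb. Slc1a2 followed at 8.86, Rnf43 at 3.53, Rhbg at 3.01, Tbx3 at 2.37, Znrf3 at 1.63, Axin2 at 1.1, Lgr5 at 0.411 and Sp5 at 0.346 CPM per kb. In LiK mice on the normal diet the libraries of Glul, Oat, Slc1a2 and Rnf43 did not overlap, so those steps in the order were larger than the spread between mice, while each of the 6 neighbouring pairs from Rnf43 down to Sp5 overlapped. Glul and Oat overlapped in each of the other 3 groups. The Wnt feedback genes were read at lower levels than the pericentral enzymes, and Sp5 rested on only 4 to 23 counts per library.

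None of the 10 genes passed the threshold (adjusted p under 0.05, edgeR's quasi-likelihood test over all genes) in any of the 5 comparisons, and in these fits on all 12 libraries none reached an unadjusted p under 0.05 with edgeR or with DESeq2. Between the strains 21.8% of all genes tested passed with the normal diet (13.2% higher and 8.61% lower in LiKM) and 9.79% with ACR (5.55% higher and 4.24% lower). The groups overlapped for all 10 genes in both, whereas 40.1% and 33.3% of all genes had all 3 libraries of one strain beyond those of the other. For ACR against the normal diet 0.195% of genes passed in LiK (0.13% higher and 0.0648% lower) and 0% in LiKM (0 genes with edgeR, 1005 at an unadjusted p under 0.05, 79 with DESeq2). The difference of the diet effects between the strains passed in 0.0072% of genes. Comparisons of one strain or diet share their control libraries, so they are not independent of each other.

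The median log2 fold change of the 10 genes in LiKM against LiK was -0.09 on the normal diet, with 9 of 10 below 0, and -0.29 on ACR, with 7 of 10 below 0. Over all genes tested both medians were 0.02. With scaling by library size alone the median of all genes on the normal diet moved to 0.4 and that of the 10 genes to 0.27, with 4 of 10 below 0 and 9 of 10 below the median of all genes. With the identifier prefix of the labels as a covariate it was 0.01, with 5 of 10 below 0. It was -0.36 without LiK normal diet mouse 1, and -0.4 and -0.34 without LiKM normal diet mouse 1 or 2. On ACR the median of the 10 genes was -0.09 without LiKM ACR mouse 2 and 0.02 without LiKM normal diet mouse 3 and LiKM ACR mice 2 and 3. For diet, the 10 genes had a median of -0.04 in LiK and -0.15 in LiKM, beside 0.01 and -0.01 over all genes. Neither sign was stable. The LiK median was 0.15 without LiK normal diet mouse 2, 0.01 without mouse 3, 0.21 with the prefix and 0.08 with library size alone. The LiKM median was 0.1 without LiKM normal diet mouse 1 or without LiKM ACR mouse 2, 0 without LiKM normal diet mouse 2, and 0.01 without the 3 libraries together.

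**Figure D1:**
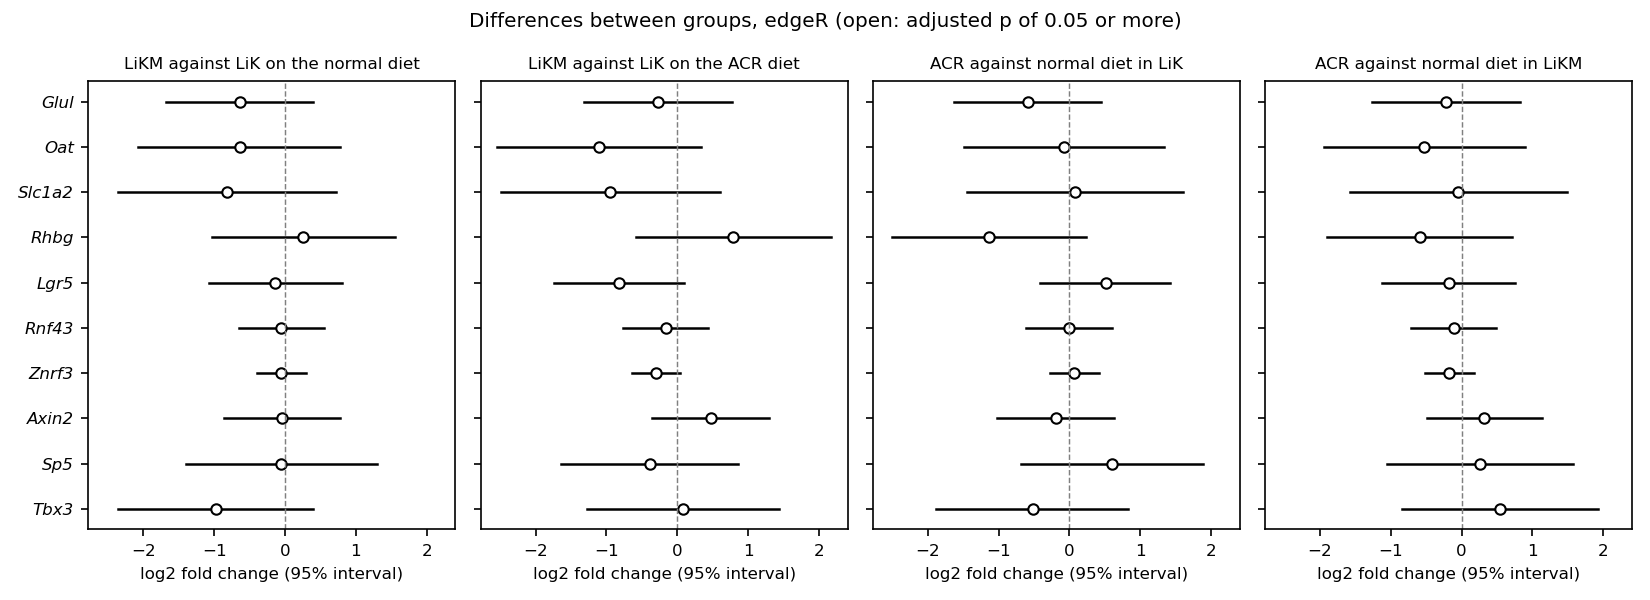
Log2 fold change (x axis) of each of the 10 genes (y axis) with its 95% interval, in 4 comparisons of 3 against 3 mice (edgeR). Every symbol is open, since no adjusted p was under 0.05, and every interval holds 0.

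Glul encodes glutamine synthetase, the enzyme of the innermost ring of hepatocytes that fixes ammonia on glutamate. In LiK mice it stood at 930, 1280 and 1050 CPM with the normal diet (mice 1, 2 and 3) and at 729, 839 and 599 CPM on ACR. In LiKM mice it stood at 987, 895 and 212 CPM with the normal diet and at 900, 495 and 402 CPM on ACR. Thus the LiK libraries on ACR were all below those on the normal diet, and in LiKM mouse 3 on the normal diet and mice 2 and 3 on ACR were lower than the rest. The means were 1090 ± 179 (SD, n = 3), 722 ± 120, 698 ± 423 and 599 ± 265 CPM in the order given. LiKM was 1.56-fold lower on the normal diet (log2 fold change -0.64 ± 0.47 SE, adjusted p = 0.363) and 1.21-fold lower on ACR (-0.27 ± 0.47, 0.754). ACR gave a value 1.5-fold lower in LiK (-0.59 ± 0.47, 0.596) and 1.17-fold lower in LiKM (-0.22 ± 0.47, 0.984). The SE rests on all 12 libraries, and the within-group SD of log2 CPM was 0.24 in LiK and 0.98 in LiKM. Fitted on the 6 LiK libraries alone, an alternative chosen after seeing the data, the LiK diet value was -0.58 ± 0.16 (unadjusted p = 0.00525, adjusted p = 0.0673, edgeR), still short of the threshold, where 6.34% of 12803 genes passed. Glul counts were not whole in 7 of 12 libraries, so reads shared with other loci enter them, and Teddm2 overlaps it on the other strand.

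Oat encodes ornithine aminotransferase, a mitochondrial enzyme that links ornithine to glutamate. Its levels in LiK were 404, 594 and 533 CPM with the normal diet and 429, 550 and 476 CPM on ACR. In LiKM they were 540, 333 and 107 CPM and, on ACR, 473, 115 and 89.7 CPM. The 6 LiK libraries lay close together, and in LiKM the same 3 libraries as for Glul were the low ones, while LiKM mouse 1 on each diet stayed within the LiK range. The group means were 510 ± 96.8, 485 ± 61.3, 327 ± 217 and 226 ± 214 CPM. LiKM was 1.56-fold lower on the normal diet (-0.64 ± 0.64, adjusted p = 0.509) and 2.15-fold lower on ACR (-1.1 ± 0.65, 0.302). This last value depended on 1 library: without LiKM ACR mouse 1 the log2 fold change was -2.25 with an edgeR adjusted p of 0.0363. Diet moved Oat by -0.07 ± 0.64 in LiK and -0.53 ± 0.64 in LiKM on the log2 scale (adjusted p 0.972 and 0.952).

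Slc1a2 encodes the glutamate transporter GLT-1, which in liver sits on the same innermost hepatocytes. Its LiK levels were 126, 170 and 145 CPM with the normal diet and 146, 183 and 136 CPM on ACR. The LiKM levels were 141, 93 and 14.7 CPM with the normal diet and 152, 53.5 and 35.6 CPM on ACR. Its lowest library, LiKM normal diet mouse 3, held 9.75% of the mean of the 6 LiK libraries, the smallest such share among Glul (23.4%), Oat (21.5%) and Slc1a2 there. The fold change was -0.82 ± 0.69 on the normal diet (adjusted p = 0.429) and -0.95 ± 0.69 on ACR (0.415), and for diet 0.08 ± 0.68 in LiK and -0.05 ± 0.69 in LiKM.

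Rhbg encodes an ammonia channel of the basolateral membrane. It stood at 5.85, 7.41 and 7.12 CPM in LiK fed the normal diet and at 4.04, 4.06 and 1.23 CPM on ACR. In LiKM it stood at 11.7, 11 and 1.51 CPM with the normal diet and at 7.4, 3.86 and 4.88 CPM on ACR. The first and second LiKM mice on the normal diet thus lay above every LiK library, whereas the third lay near the lowest. In LiK, ACR gave 2.18-fold lower Rhbg (-1.13 ± 0.62, 95% interval -2.5 to 0.24, adjusted p = 0.444). Rhbg and Glul were the 2 of 10 genes whose LiK libraries did not overlap between diets, both lower on ACR, in a comparison where 28.1% of all genes did not overlap. On the 6 LiK libraries alone Rhbg was at -1.12 ± 0.38 (unadjusted p = 0.0206, adjusted p = 0.138, edgeR). For LiKM against LiK, Rhbg differed by 0.26 ± 0.59 with the normal diet and 0.79 ± 0.62 on ACR (adjusted p 0.794 and 0.447), the opposite sign to Glul, Oat and Slc1a2.

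**Figure D2:**
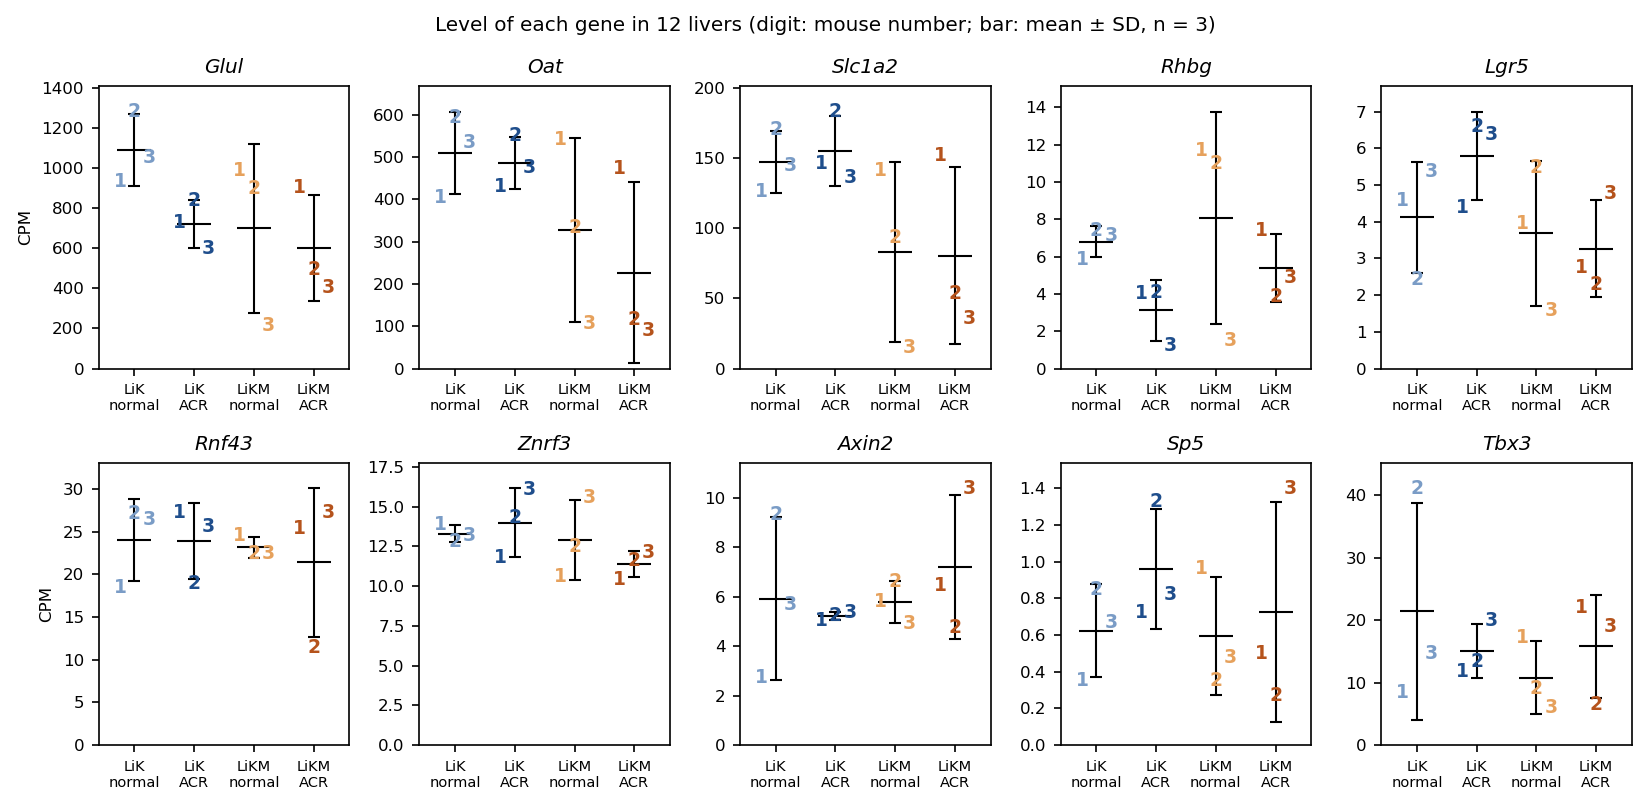
CPM (y axis, from 0) of each of the 10 genes in the 4 groups (x axis), with each digit a mouse by its number in the group and bars the mean ± SD (n = 3). Glul, Oat and Slc1a2 are low in LiKM normal diet mouse 3 and LiKM ACR mice 2 and 3, while Rnf43 and Znrf3 stay near one level in most libraries.

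Among surface proteins of the pathway, Lgr5, an R-spondin receptor and target gene of Wnt signalling, ran from 1.59 to 6.59 CPM. LiK mice had 4.58, 2.43 and 5.36 CPM with the normal diet and 4.4, 6.59 and 6.38 CPM on ACR, and LiKM mice had 3.96, 5.49 and 1.59 and then 2.74, 2.3 and 4.76 CPM. On ACR the LiKM libraries were mostly below the LiK ones, with LiKM mouse 3 inside the LiK range. The difference was -0.82 ± 0.42 (1.77-fold lower, 95% interval -1.74 to 0.1, unadjusted p = 0.076, adjusted p = 0.231, edgeR). On the normal diet it was -0.14 ± 0.43. Lgr5 counts were not whole in 7 of 12 libraries, and A930009A15Rik overlaps it on the other strand.

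Rnf43, one of the ligases that remove Frizzled, stood between 11.4 and 27.3 CPM, and 11 of its 12 libraries lay between 18.5 and 27.3 CPM. The exception was LiKM ACR mouse 2, at 11.4 CPM beside 25.4 and 27.3 CPM in its group. Its log2 differences were -0.05 ± 0.28 and -0.16 ± 0.28 for strain on the normal diet and ACR, and 0 ± 0.28 and -0.11 ± 0.28 for diet in LiK and LiKM.

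Znrf3, the related ligase, was the steadiest of the 10 genes, with a 1.54-fold range from 10.4 to 16.1 CPM. LiKM normal diet mouse 3, where Glul, Oat and Slc1a2 were lowest or nearly so, had the highest Znrf3 of its group (15.6 CPM beside 10.6 and 12.5 CPM). Strain differences were -0.05 ± 0.16 with the normal diet and -0.3 ± 0.16 on ACR (95% interval -0.64 to 0.04, unadjusted p = 0.0787, adjusted p = 0.236). With a 95% interval of -0.39 to 0.29 on the normal diet, Znrf3 was the gene measured most tightly of the 10.

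Axin2, the scaffold of the beta-catenin destruction complex and the most used readout of Wnt activity, had 2.75, 9.34 and 5.69 CPM in LiK fed the normal diet and 5.05, 5.26 and 5.35 CPM on ACR. LiKM libraries had 5.82, 6.62 and 4.93 CPM with the normal diet and 6.47, 4.75 and 10.4 CPM on ACR. The 3 libraries low in Glul lay within the LiK range of Axin2 or above it, and 1 of them, LiKM ACR mouse 3, held the highest Axin2 of all 12. Strain differences were -0.04 ± 0.38 (adjusted p = 0.95) and 0.47 ± 0.37 (0.451). Their 95% intervals ran from -0.86 to 0.78 and from -0.35 to 1.29, so with 3 mice per group a difference inside those limits was not excluded.

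Sp5, a transcription factor induced directly by beta-catenin in many tissues, stood at 0.352, 0.849 and 0.67 CPM and at 0.721, 1.33 and 0.823 CPM in LiK fed the normal diet and ACR. In LiKM it stood at 0.96, 0.352 and 0.477 and at 0.498, 0.271 and 1.4 CPM. As for Axin2, LiKM ACR mouse 3 was the highest of the 12 libraries. The strain differences, -0.05 ± 0.62 and -0.39 ± 0.57, rest on so few counts that intervals spanned more than 2 log2 units (-1.4 to 1.3 and -1.64 to 0.86).

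Tbx3, a T-box factor and Wnt target of liver, had 8.38, 41.1 and 14.6 CPM in LiK fed the normal diet and 11.7, 13.3 and 19.9 CPM on ACR, and in LiKM 17.2, 9.09 and 6.05 and then 22, 6.44 and 18.9 CPM. LiK normal diet mouse 2 alone stood far above the rest, and it raised the mean of its group to 21.4 ± 17.4 CPM. The strain difference on the normal diet was -0.98 ± 0.62 (adjusted p = 0.283), and on ACR 0.08 ± 0.61 (0.952). Without LiK normal diet mouse 2 the first was -0.08 (0.944). For the difference of diet effects between strains Tbx3 had the largest value of the 10 genes, 1.06 ± 0.87 (adjusted p = 0.677), which was 0.15 (0.953) without that same mouse, and Lgr5 the lowest, -0.68 ± 0.6 (0.699). An antisense gene, Tbx3os1, overlaps Tbx3, and whether the counting used strand was not given in the sources used here.

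Glul, Oat and Slc1a2 varied more among LiKM than among LiK mice, where mice of one diet are compared with their own group mean. The SD of log2 CPM within groups was 0.24 in LiK and 0.98 in LiKM for Glul, 0.24 and 1.25 for Oat, 0.22 and 1.44 for Slc1a2, and 0.67 and 1.19 for Rhbg. In LiKM these 4 lay at the 97.4th, 98.9th, 99.3rd and 98.7th percentile of all genes tested, whose medians were 0.18 in LiK and 0.26 in LiKM. The spread was also wider in LiKM for Sp5 (0.47 and 0.81, 95.3rd percentile in LiKM), Lgr5 (0.47 and 0.73, 93.2nd percentile), Rnf43 (0.3 and 0.49) and Znrf3 (0.16 and 0.21). It was equal for Tbx3 (0.86 in both) and narrower in LiKM for Axin2 (0.61 and 0.42). No test was made of these spreads.

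**Figure D3:**
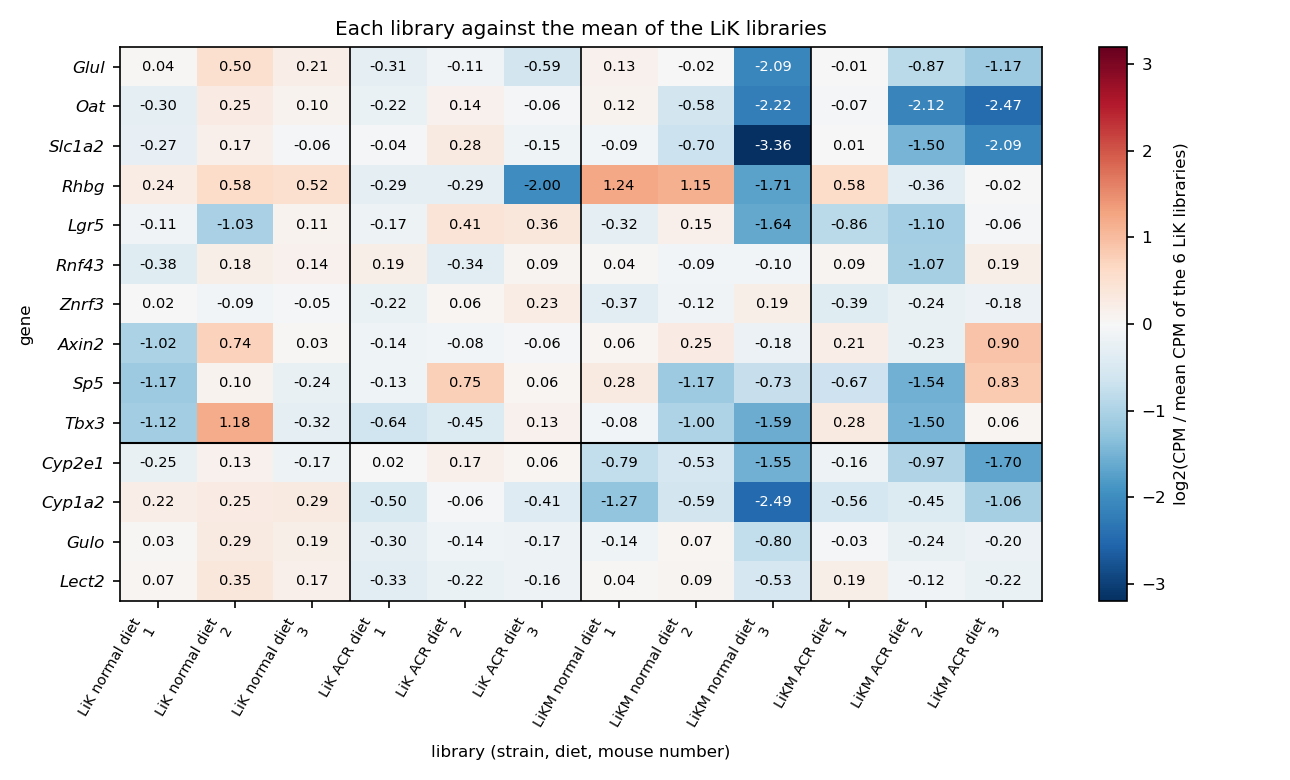
Log2 ratio (colour and printed value) of the CPM of each gene (rows) in each library (columns) to the mean of the 6 LiK libraries, with 4 other pericentral genes under the line. Oat is at -2.22, -2.12 and -2.47 and Slc1a2 at -3.36, -1.5 and -2.09 in LiKM normal diet mouse 3 and LiKM ACR mice 2 and 3, where Axin2 is at -0.18, -0.23 and 0.9.

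These 3 LiKM libraries are the ones whose clock genes stood apart within their groups, though not in one direction. Arntl, the core clock activator, was at 30.3 and 29.6 CPM in LiKM ACR mice 2 and 3 and at 5.66 CPM in mouse 1, and Dbp, a clock output factor, at 74 CPM in LiKM normal diet mouse 3 beside 8.46 and 25.6 CPM. In LiKM ACR mice 2 and 3 Dbp was instead at 3.25 and 3.54 CPM, beside 15.4 CPM in mouse 1. Clock genes also differed between the LiK diets, where Dbp was at 136 to 139 CPM on ACR and 25.6 to 35.9 CPM with the normal diet. Oat and Slc1a2 overlapped between these diets, and Glul did not. The part of the clock in the levels of Glul, Oat and Slc1a2 was not tested. Leaving out the 3 libraries leaves LiKM on ACR with 1 mouse, whose spread is assumed to be that of the other groups. The 3 are also the low ones in Glul, Oat and Slc1a2, so higher LiKM values of these genes without them follow from the choice. The strain difference was then -0.23 for Glul, -0.25 for Oat and -0.35 for Slc1a2 with the normal diet. On ACR the same genes gave 0.31, -0.05 and -0.04. Rhbg then differed by 0.71 and 1.24 (adjusted p 0.183 and 0.159). In whole tissue, fewer pericentral hepatocytes and less of these RNAs per cell cannot be told apart.

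Same-numbered LiKM mice of both diets deviated together across genes, and a fit with the mouse number as a block within LiKM changed some calls. By that block Glul (-0.88, adjusted p = 0.0473), Oat (-0.9, 0.0265) and Slc1a2 (-1.26, 0.0225) were lower in LiKM fed the normal diet, and Oat (-1.48, 0.00736) and Slc1a2 (-1.18, 0.0425) on ACR. Such a block takes the differences between LiKM mice out of the error of a comparison with LiK mice, to whom the numbers do not carry over, so these p-values do not include the spread between animals. In the comparison where same-numbered mice deviated together, ACR against the normal diet within LiKM, none of the 10 genes passed with the block.

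Other genes of the pericentral zone, from a list of 22 that all passed the filter, were read beside these. In LiKM fed the normal diet 2 of 22 fell and none rose (8.61% and 13.2% of all genes), 17 were below 0, and the median was -0.29 (all genes 0.02). Cyp1a2, a cytochrome that oxidises caffeine and planar amines, fell by 1.51 ± 0.36 on the log2 scale (adjusted p = 0.0146), from 467 to 490 CPM in LiK to 71.7 to 266 CPM in LiKM, and kept its call without any one of the 12 libraries. The second of the 2 calls was lost on leaving out any 1 of 9 libraries. Cyp2e1, the ethanol-oxidising cytochrome, was below LiK in all 3 LiKM mice on each diet without passing (-0.81 ± 0.34, 0.112, and -0.89 ± 0.34, 0.116). Without the 3 LiKM libraries its normal diet value was smaller but still below 0, at -0.59, so it did not rest on them alone. With the block within LiKM, which removes the spread between LiKM mice, Cyp2e1 passed on both diets (-0.85, edgeR adjusted p = 0.00725, and -1.01, 0.00722). On ACR and for diet 0 of 22 passed with edgeR on all 12 libraries (3 for strain on ACR, 1 for diet in LiK and 0 for diet in LiKM at an unadjusted p under 0.05). On the 6 LiK libraries alone, the alternative chosen after seeing the data, Cyp1a2 was lower on ACR (-0.55, edgeR adjusted p = 0.0293). In that fit 6.34% of genes passed.

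LiKM normal diet mouse 3 was the lowest of its group in 20 of 22 pericentral genes and in 8 of the 10 genes followed here, where it was lowest in 38.4% of all genes. Of the LiKM ACR mice, mouse 1 was highest in 15 of 22 (30.4% of all genes) and mouse 3 lowest in 17 of 22 (34.7%). The median of the 22 genes against the LiK mean was -0.85 in LiKM normal diet mouse 3 and -0.82 in LiKM ACR mouse 3, and between -0.3 and 0.19 in the other 10 libraries. LiKM ACR mouse 2, where Oat and Slc1a2 were low, was at -0.21. In LiK fed the normal diet, mouse 2 was highest in 8 of the 10 genes (36.1% of all genes) and mouse 1 lowest in 8 (35.7%).

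Other known Wnt target genes were read from a list of 14. Of the 14, 11 passed the filter, and 4 rose in LiKM fed the normal diet with none lower (13.2% and 8.61% of all genes): Sox9, Tnfrsf19, Cd44 and Mmp7. Sox9 is a factor of biliary and progenitor cells as well as a Wnt target. On the normal diet it rose by 2.36 ± 0.3 (edgeR adjusted p = 0.000613), from 3.52 to 5.32 CPM to 18.4 to 29.3 CPM. On ACR 2 of the 11 rose, Sox9 and Mmp7, and 0 fell (5.55% and 4.24% of all genes). Sox9 rose there by 1.82 ± 0.3 (0.00732). Both Sox9 calls held without any one library, and the second was lost without the 3 libraries together. Mmp7, a protease of ductal and tumour cells, was at 0 in all 6 LiK libraries and was at least 27.2-fold higher in LiKM fed the normal diet and at least 11.4-fold higher on ACR, against a floor of 3 counts per group (edgeR adjusted p = 0.00629 and 0.0315). The call on ACR was lost without any of the LiK ACR mice, or without LiKM ACR mouse 1 or 2 (0.0635 to 0.0929). The summed biliary and progenitor markers, of which Sox9 is 1, ran from 597 to 1050 CPM in LiKM fed the normal diet against 54.4 to 68.6 CPM in LiK, and their part in these values was not tested.

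Tnfrsf19, a receptor of the tumour necrosis factor family, rose by 1.48 ± 0.35 (0.0123) and Cd44, a hyaluronan receptor, by 1.57 ± 0.44 (0.0283) on the normal diet. Tnfrsf19 missed the threshold without LiK normal diet mouse 1 or 3 (adjusted p 0.0524 and 0.0504), and Cd44 without either of these or without LiKM normal diet mouse 1 or 2 (0.0709 to 0.101), or with the prefix as a covariate (0.0749). The feedback genes Nkd1 and Notum did not pass in the edgeR fit without a block. Nkd1 differed by 0.13 ± 0.17 and -0.25 ± 0.17 between strains on the normal diet and ACR. Notum, a lipase that inactivates Wnt ligands, lay lower in all 3 LiKM mice on each diet (-0.57 ± 0.2, 0.0563, and -0.49 ± 0.2, 0.127). On the normal diet Notum did pass with DESeq2 (-0.58, adjusted p = 0.0371). It also passed there with the block within LiKM (-0.59, 0.0207), which removes the spread between LiKM mice. Tcf7 differed by 0.15 ± 0.34 and 0.19 ± 0.33. Lef1 did not pass the filter, with 2.5 to 11 counts per group.

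**Figure D4:**
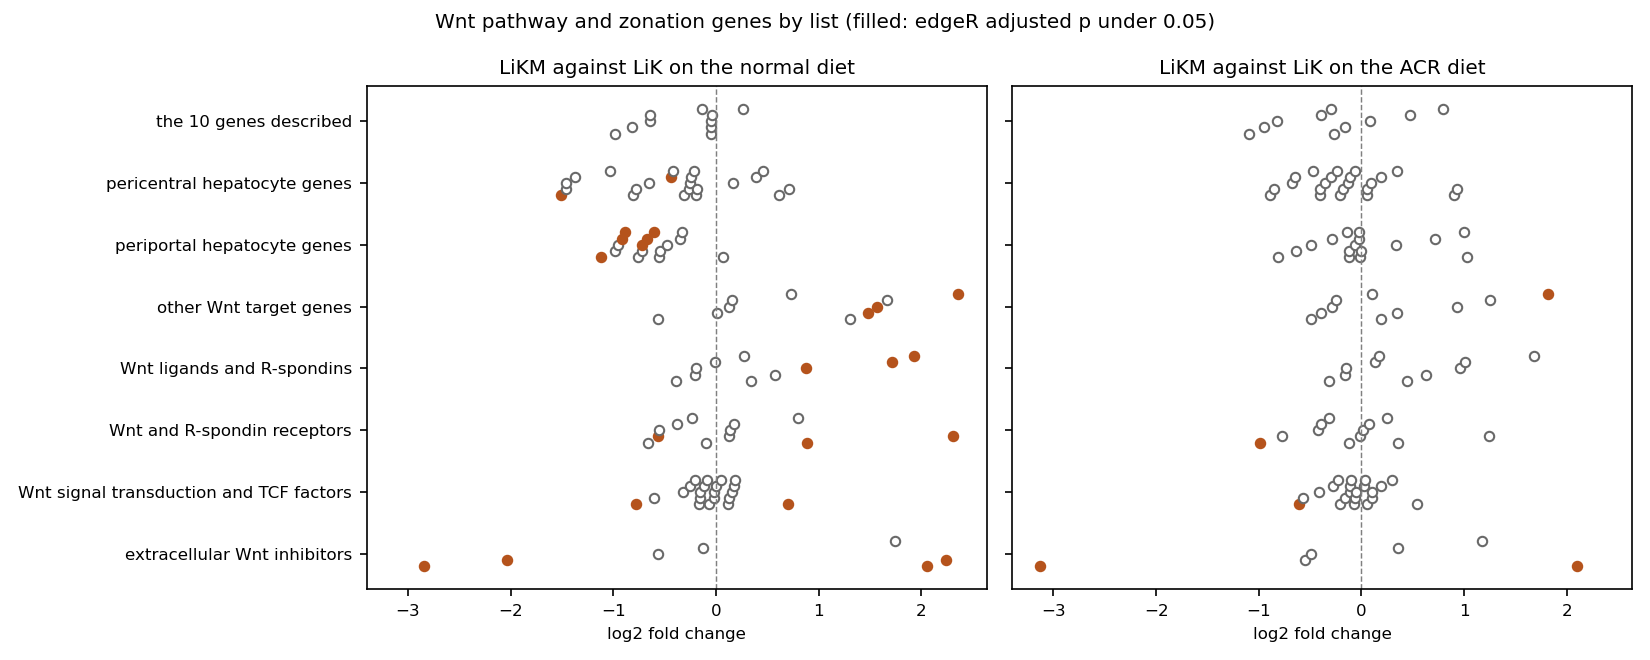
Log2 fold change (x axis) of LiKM against LiK for each tested gene of 8 lists (y axis) on the normal diet and on ACR, filled where the edgeR adjusted p was under 0.05. The 10 genes described are all open, and Mmp7 and Dkk4 are left out where a group was at 0 counts.

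The ligands and R-spondins known for zonation did not pass in any comparison of the edgeR fit with TMM scaling. Rspo3, the R-spondin of the central vein, stood at 2.43 to 4.75 CPM in LiK and 4.3 to 6.06 CPM in LiKM fed the normal diet (0.57 ± 0.25, adjusted p = 0.131), and was higher in all 3 LiKM mice on ACR (0.44 ± 0.25, 0.276). With library size alone Rspo3 passed on the normal diet (0.93, 0.0284), where the median of all genes was 0.4. Wnt2 differed by -0.2 ± 0.38 and -0.15 ± 0.37 between strains and Wnt9b by 0.34 ± 0.44 and 0.13 ± 0.42. The summed central vein endothelial markers, which include these 3 genes, overlapped between strains on the normal diet (19.5 to 31.3 CPM in LiK and 25.9 to 39.4 CPM in LiKM). In the list as a whole, 10 of 25 genes passed the filter and 3 rose in LiKM fed the normal diet, none on ACR (13.2% and 5.55% of all genes). These were Wnt5a (1.93 ± 0.41, 0.00796), a ligand known for signalling without beta-catenin, Wnt4 (1.71 ± 0.49, 0.0283), and Wls (0.88 ± 0.23, 0.0197), the carrier that brings Wnt proteins to the surface. Wnt5a held without any one library. Wnt4 was lost without LiK normal diet mouse 1 or 3 or LiKM normal diet mouse 3 (0.0806 to 0.103), or without the 3 LiKM libraries together (0.0608), and Wls without LiK normal diet mouse 1 or 3 or LiKM normal diet mouse 1 or 2 (0.0555 to 0.0784). Summed stellate markers (6 of 6 detected in every library) ran from 192 to 331 CPM in LiK and 255 to 489 CPM in LiKM fed the normal diet, and from 230 to 298 and 348 to 427 CPM on ACR. Their part, and that of the biliary and progenitor markers given above, in the rise of these 3 genes was not tested.

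Of 17 receptors listed, 12 passed the filter. On the normal diet 2 of the 12 rose and 1 fell in LiKM (13.2% and 8.61% of all genes). On ACR 0 rose and 1 fell (5.55% and 4.24% of all genes). Lgr4, a receptor for R-spondins, fell by 0.57 ± 0.13 in LiKM fed the normal diet (adjusted p = 0.011), from 62.4 to 69.1 CPM to 35.9 to 48.3 CPM, and on ACR it stood lower in all 3 LiKM mice without passing (-0.42 ± 0.13, 0.0626). On ACR Lgr4 did pass with DESeq2 (-0.43, adjusted p = 0.0295). It also passed there with the block within LiKM (-0.43, 0.0112), which removes the spread between LiKM mice. The call on the normal diet held without any one library. With library size alone it was -0.18 (0.351) where the median of all genes was 0.4, so Lgr4 lay below that median by either scaling. Fzd3, a Frizzled receptor, rose by 2.31 ± 0.53 (0.0107) from 10 counts in the 3 LiK libraries together to 49 in LiKM, and Ror1, a receptor for Wnt5a, by 0.89 ± 0.22 (0.0153). Both held without any one library. On ACR the 1 call was Fzd8 (-0.99 ± 0.27, 0.0435), lost without any LiKM ACR mouse, without LiK ACR mouse 1 or 2 or without LiK normal diet mouse 3 (0.0554 to 0.14). It was also lost with library size alone (0.0642), the replicate block over all libraries (0.0615), the prefix (0.0836) and without the 3 libraries (0.215).

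Inside the cell, beta-catenin itself (Ctnnb1) stood at 229 to 258 CPM in LiK and 264 to 281 CPM in LiKM fed the normal diet (0.13 ± 0.1, adjusted p = 0.371) and differed by 0.1 ± 0.1 on ACR. With library size alone Ctnnb1 was at 0.52 on the normal diet (edgeR adjusted p = 0.00204), where the median of all genes was 0.4. RNA does not show the amount of beta-catenin protein. Of 22 genes of signal transduction listed, 21 passed the filter and 1 rose and 1 fell on the normal diet, a smaller share than the 13.2% and 8.61% of all genes. Bcl9, a co-activator, was at 0.7 ± 0.23 (0.0497) and Ctnnbip1, an inhibitor of beta-catenin and TCF binding, at -0.78 ± 0.25 (0.0461). On leaving out 1 library, Bcl9 kept its call only where that was LiKM ACR mouse 1 or 3, and Ctnnbip1 only where it was LiK normal diet mouse 2 or LiKM ACR mouse 1 or 2 (otherwise 0.0512 to 0.164 and 0.0512 to 0.158). On ACR 1 of the 21 fell and 0 rose (4.24% and 5.55% of all genes). The 1 was Bcl9l, a relative of Bcl9, at -0.61 ± 0.18 (edgeR adjusted p = 0.0482). Its call held only where the library left out was LiKM normal diet mouse 1 or 3 or LiKM ACR mouse 3 (otherwise 0.0526 to 0.179). These 3 calls were each lost under 3 other settings too.

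Secreted inhibitors moved in both directions. Of 14 listed, 7 passed the filter. On the normal diet 2 rose and 2 fell (13.2% and 8.61% of all genes), and on ACR 1 rose and 1 fell (5.55% and 4.24%). Dkk3, a member of the Dickkopf family, rose by 2.24 ± 0.44 (adjusted p = 0.00546), from 0.775 to 2.15 CPM to 3.02 to 10 CPM, and on ACR by 2.1 ± 0.44 (0.0163). Frzb, a decoy receptor, rose by 2.05 ± 0.52 (0.0169). The part in these rises of the stellate, biliary and progenitor markers, whose sums are given above, was not tested. Wif1, which binds Wnt proteins, fell by 2.04 ± 0.6 (0.0313) from 72 counts in the 3 LiK libraries together to 17 in LiKM, and on ACR by 3.13 ± 0.72 (0.0222) from 51 to 6. Dkk4, an inhibitor that Wnt signalling itself induces, fell by 2.84 ± 0.69 (0.0176) from 52 to 7 counts on the normal diet. On ACR it was at 12 counts in LiK and 0 in LiKM, at least 4.35-fold lower, and it did not pass.

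The Dkk3 call on the normal diet held without any one library. On ACR it was lost without LiK ACR mouse 2 or 3 (0.0748 and 0.0505), and without the 3 LiKM libraries together (0.0561). Frzb was lost without LiK normal diet mouse 1 or 3 or LiKM normal diet mouse 1 (0.0554 to 0.0681), and Dkk4 without LiK normal diet mouse 1 or LiKM normal diet mouse 2 (0.0502 and 0.0558). Wif1 on the normal diet was lost without any LiK normal diet mouse or LiKM normal diet mouse 1 or 3 (0.056 to 0.092), with library size alone (0.0506) and with the prefix (0.135). On ACR it was lost without LiK ACR mouse 1 or 2 or LiKM ACR mouse 2 (0.0516 to 0.0953), and without the 3 libraries together (0.164). For diet in either strain and for the difference of diet effects, 0 genes passed with edgeR in each of these Wnt lists (0 to 4 per list at an unadjusted p under 0.05). Of all 13880 genes, 1953, 1005 and 1593 had such a p for diet in LiK, diet in LiKM and the difference. The 4 were among the 11 other Wnt target genes for diet in LiKM. There 8 of these 11 were below 0, with a median of -0.65 (all genes -0.01).

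Periportal genes, the counterpart of the pericentral zone, were read from a list of 16 that all passed the filter. On the normal diet 6 of 16 fell in LiKM and none rose (8.61% and 13.2% of all genes), 15 were below 0 and the median was -0.69. Ass1 (-0.92 ± 0.21, adjusted p = 0.0117) and Otc (-0.6 ± 0.14, 0.0101), both of the urea cycle, and the cytochrome Cyp2f2 (-0.89 ± 0.2, 0.00986) fell without depending on any one library, though Otc did not pass with library size alone (0.235). Gls2, the liver glutaminase that supplies ammonia upstream of Glul, fell by 0.72 ± 0.18 (0.0177), and Uroc1, of histidine breakdown, by 0.67 ± 0.19 (0.0276). Gls2 was lost without LiK normal diet mouse 1 or 3 or LiKM normal diet mouse 1 (0.0604 to 0.069), and Uroc1 without these or LiKM normal diet mouse 3 (0.0608 to 0.103), and both with library size alone (0.165 and 0.188). On ACR 0 of 16 passed with edgeR (3 at an unadjusted p under 0.05) and the median was -0.04. Hepatocyte markers summed to 94200 to 102000 CPM in LiKM fed the normal diet and 119000 to 168000 CPM in LiK, and their part in these values was not tested.

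Likeness of pattern was measured as Pearson's r of log2 CPM after subtracting each group's mean, over 12 libraries, which share scaling and mouse. Among the 9744 genes with a mean of at least 5 CPM, those most like Glul were Mir8114 (r = 0.98, within Glul and so sharing its reads), Slc1a2 (0.98), 2610507B11Rik (0.97), Tgs1 (0.97) and Frrs1 (0.96). Slc1a2 ranked second of 13879 genes. Further down came Rhbg (0.9, rank 84), Oat (0.9, rank 87), Cyp1a2 (0.84, rank 303) and Cyp2e1 (0.83, rank 340). Tbx3 (0.48) and Lgr5 (0.44) were less like Glul, and Axin2 (0.2), Rnf43 (0.13) and Sp5 (0.08) little like it. Znrf3 went the other way (-0.78). Without the 3 LiKM libraries 9 are left. Of these, LiKM ACR mouse 1 is alone in its group, equals its group mean and adds nothing to r. Over the 9, r was 0.82 for Slc1a2, 0.64 for Oat, 0.75 for Rhbg, 0.73 for Sp5 and 0.62 for Axin2. It was 0.57 for Cyp2e1, 0.5 for Tbx3, 0.34 for Frrs1, 0.13 for Cyp1a2 and 0.1 for Rnf43. For Znrf3 it was -0.52 and for Lgr5 -0.55. The low values of Axin2 and Sp5 and the high one of Cyp1a2 thus rested on these 3 libraries. Most like Axin2 were Itpripl1 (0.93), Sepn1 (0.92), Neurl3 (0.91), Tor3a (0.91) and Zfp703 (0.89), with Tbx3 (0.79), Sp5 (0.7) and Rnf43 (0.67) the nearest of the 10 genes. These stood at 0.82, 0.52 and 0.65 without the 3 libraries.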

How the data were processed

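RNA sequencing measured gene expression in 12 livers with a stranded mRNA kit, per the labels' protocols. The deposited table holds expected counts made by the authors, and 18.9% of its values above 0 are not whole. Per the submitters' processing notes, featureCounts 2.0.0 and build mm10 were used. The aligner, annotation, strand setting and treatment of shared reads were not given in the sources used here. Sample titles give the groups and name each mouse.

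Counts were rounded, 13880 of 24421 genes were kept by filterByExpr, and libraries (10124813 to 18647156 counts) were scaled by TMM. The 5 comparisons were fitted on all 12 libraries, 1 coefficient per group, with edgeR 4.0.16 (R 4.3.3, robust quasi-likelihood), adjusted by Benjamini-Hochberg over all genes with a threshold of 0.05. The code was tested on simulated data. Log2 CPM used a prior count of 2. Alternatives were library size alone, DESeq2 1.42.0, no filter, the replicate block, the identifier prefix in the labels (KM or MP, meaning not given) as a covariate, leaving out each library, leaving out the 3 LiKM libraries that stood apart in these data, and, added after seeing the data, the LiK libraries alone for diet in LiK.

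The 10 genes and all lists were chosen with earlier results of these data known. The text names the 10 genes, from each list at most 5 genes of smallest p past the threshold, Ctnnb1, Rspo3, Wnt2, Wnt9b, Lgr4, Notum, Nkd1, Lef1, Tcf7, Cyp2e1 and Cyp1a2, and the 5 genes most like Glul and Axin2, apart from 1 pericentral gene that is not reported here. Clock and other marker genes are values beside these, and Mdm2 is a check of the strain. Whether mice of equal number deviate alike was checked by correlating, across genes, each library's deviations from its group mean. This correlation was 0.37, 0.22 and 0.48 between LiKM diets, and 0.08 or less in each of the other comparisons. With 3 mice per group, the same order of mice on both diets can arise without any link between them. A pairing of LiKM mice by number was thus not established, and the meaning of the numbers was not given in the sources used here. Positions are from GENCODE on mm10, and promoter sequences from RefSeq on GRCm38.p6.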

Additional observations from a re-analysis of the deposited data

How the results depend on the processing

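None of the 10 genes was called, and over 960 values under alternatives 6 were, while 95 changed sign without a call and 0 called values reversed. The 6 were the 5 with the replicate block within LiKM (3 genes on the normal diet, 2 on ACR) and Oat on ACR without LiKM ACR mouse 1 (1 gene, range 0 to 1 on leaving out a library). Counts over all genes depended more on the setting. LiKM against LiK on the normal diet gave 3031 genes, 4831 with library size alone, and 1658 to 3384 on leaving out 1 library (1658 without LiK mouse 1, 1862 without LiK mouse 3). On ACR it gave 1359, 2150 with DESeq2, 2473 with the replicate block within LiKM, 555 without the 3 LiKM libraries, and 312 to 1695 on leaving out 1 library (312 without LiK ACR mouse 2, 565 to 761 without LiK ACR mouse 1 or 3 or LiKM ACR mouse 2). Diet in LiK gave 27 genes, 397 with DESeq2, 701 with the block within LiKM, 16 with the prefix, 624 without the 3 libraries, 812 with the 6 LiK libraries alone (an alternative added after seeing the data) and 0 to 108 on leaving out 1. Diet in LiKM gave 0 genes, 79 with DESeq2, 9 with the block within LiKM, 1 without the 3 libraries and up to 5 on leaving out 1. The difference of diet effects gave 1 gene, 16 with library size alone, 160 with DESeq2, 2 with no filter, 2 with the block over all libraries, 260 with the block within LiKM, 0 with the prefix, 15 without the 3 libraries and 0 to 20 on leaving out 1. The cause was not tested, except that a block within LiKM removes the spread between LiKM mice by construction, as does a fit on LiK alone. The block over all 12 libraries changed no call of the 10 genes.

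With 3 mice per group and a spread as wide as that of Slc1a2 in LiKM (SD 1.44 on the log2 scale), only large differences could pass. Glul and Lgr5 hold shared reads, Sp5 has at most 23 counts in a library, and the hour of collection, strand setting and meaning of the identifier prefix were not given in the sources used here.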

Other observations

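LiKM ACR mouse 2 combined low Oat (115 CPM) and Slc1a2 (53.5 CPM) with periportal genes that were high for its group but near the LiK mean. It was the highest of its group in 14 of 16 periportal genes, where it was highest in 27.8% of all genes, and its periportal median was 0.04 on the log2 scale against the LiK mean. LiKM ACR mouse 3, also low in both genes, was the lowest of its group in 10 of 16, with a median of -0.7. The low level of Oat and Slc1a2 thus occurred with periportal genes near the LiK mean and with periportal genes below it, and no test was made of this.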
